A study of Mus musculus with 10 samples.

Results

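The 53 genes described here are the kinetochore, spindle checkpoint and condensin genes of the mouse, measured by bulk RNA-seq in tumor-draining lymph nodes (TDLNs). They were taken by name and fall into 6 lists, with 14 genes of the inner kinetochore, 17 of the outer kinetochore, 6 of the spindle checkpoint, 4 of the chromosomal passenger complex, 5 of condensin, and 7 mitotic kinases and anaphase regulators. All 53 were found among the 33585 genes of the files, and 52 of them were among the 13334 genes whose mean reached 1 FPKM (fragments counted per length of transcript and per depth of library) that were tested. Cenpk was the member below that level.

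The nodes came from female BALB/c mice that were 6 weeks old at the start of the study and carried tumors of 4T1, a mouse mammary carcinoma cell line, in a mammary fat pad. In every mouse the tumor was removed by complete microwave ablation (MWA) on day 10, so no mouse without ablation enters the comparison. The group labelled MWA+2DG then received 2-deoxy-D-glucose (2DG), a glucose analogue that inhibits glycolysis, every 2 days, and the group labelled MWA received PBS, which the study names and the labels do not. Nodes were taken on day 15, with 5 libraries in each group and 1 mouse per library. The comparison asks how 2DG after ablation changed expression in the node. A whole node was sequenced, so fewer cells of a type and less RNA per cell cannot be told apart.

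The kinetochore is the protein assembly that joins each chromosome to the microtubules of the mitotic spindle. Its inner part sits on centromeric chromatin marked by the histone variant CENP-A, and its outer part holds the microtubule. Kinetochores without a microtubule send the spindle checkpoint signal, which blocks Cdc20, the activator of the anaphase-promoting complex, until all chromosomes are attached. Condensin folds the chromosomes for this step, and separase then cuts the cohesin that holds sister chromatids together. In a lymph node, transcripts of this kind come mostly from dividing lymphocytes, among them the B cells of germinal centres.

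Many genes of this kind share short promoter motifs, so the promoters were read first. RefSeq holds a promoter window (GRCm38.p6, 250 bases before to 50 after the gene's start) for 46 of the 53 members, all but Spc24, Nsl1, Zwilch, Ska1, Incenp, Aurkb and Smc4. A gene with several windows was counted where any of them held the match. The cell cycle genes homology region (CHR, here TTTGAA or TTCGAA on either strand) is a site of the complexes that repress and activate mitotic genes, and the CCAAT box (CCAAT on either strand) is the site of NF-Y. A CHR match was found in 26 of the 46 members (56.5%) and in 21.7% of all 27025 genes with a window. A CCAAT match was found in 33 members (71.7%) and in 41.1% of all genes, and both together in 23 members (50%) and in 8.61% of all genes. Of 18 S phase genes, 15 had a window, with a CHR match in 20% and a CCAAT match in 80%. In the members the median first base was at -8 for the CHR matches and farther upstream, at -55, for the CCAAT matches. From 50 bases before the start to the end of the window began 22 of 29 CHR matches and 27 of 61 CCAAT matches. A match is a match of letters, and binding was not measured.

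**Figure D1:**
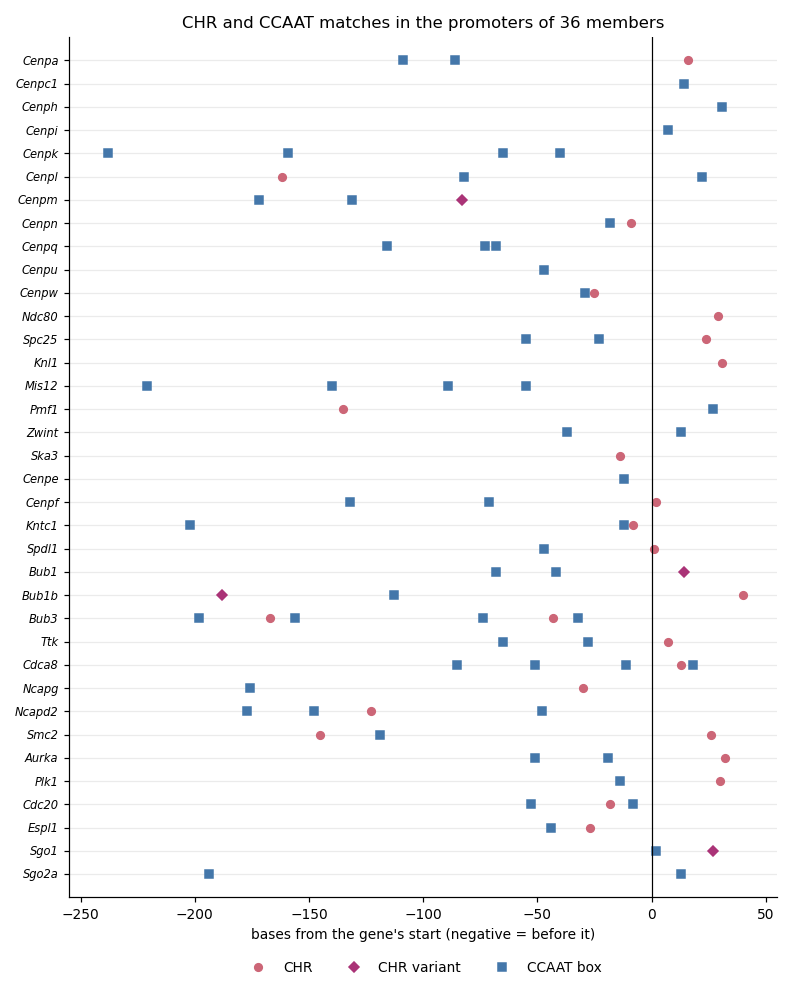
Position of each CHR match (circles for TTTGAA, diamonds for TTCGAA) and each CCAAT match (squares), in bases from the gene's start, in the promoter windows of the 36 members that hold any. CHR matches have a median position of -8 and CCAAT matches a median farther upstream, at -55. The order differs between genes, as in Pmf1 with a CHR match at -135 and a CCAAT match at 27.

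For 5 of the lists the promoter of the member of smallest P among those with a single window is printed in full, since these 5 genes were lower by the rule described next, together with that of Cenpo, whose difference was nearest to 0 among the members with a single window. Each is 300 bases, 5′ to 3′ on the gene's strand, in lower case with CHR and CCAAT matches in capitals. Of the 6 printed, Cenph holds a CCAAT match and no CHR match, and Ndc80 holds a CHR match and no CCAAT match. Bub1b, Cdca8 and Ncapg hold both, and Cenpo holds neither. In the list of mitotic kinases and anaphase regulators the corresponding member was Pttg1, which was not lower by the rule and is not printed. The window of Pttg1 holds neither match. In Cdca8 a CHR match and a CCAAT match overlap and are printed as 1 run of capitals.
Cenph (chr13:100775850-100776149, minus strand): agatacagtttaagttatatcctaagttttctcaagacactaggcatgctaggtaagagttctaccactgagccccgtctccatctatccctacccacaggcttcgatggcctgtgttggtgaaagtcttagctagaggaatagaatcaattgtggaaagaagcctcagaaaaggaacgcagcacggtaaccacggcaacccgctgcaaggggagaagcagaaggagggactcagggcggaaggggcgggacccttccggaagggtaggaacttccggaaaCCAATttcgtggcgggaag
Ndc80 (chr17:71526808-71527107, minus strand): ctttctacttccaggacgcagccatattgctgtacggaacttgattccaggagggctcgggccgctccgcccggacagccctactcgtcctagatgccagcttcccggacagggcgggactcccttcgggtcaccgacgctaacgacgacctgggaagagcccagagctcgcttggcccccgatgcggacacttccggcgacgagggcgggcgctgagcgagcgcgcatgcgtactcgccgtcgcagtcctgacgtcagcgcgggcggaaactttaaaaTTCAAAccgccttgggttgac
Bub1b (chr2:118597961-118598260, plus strand): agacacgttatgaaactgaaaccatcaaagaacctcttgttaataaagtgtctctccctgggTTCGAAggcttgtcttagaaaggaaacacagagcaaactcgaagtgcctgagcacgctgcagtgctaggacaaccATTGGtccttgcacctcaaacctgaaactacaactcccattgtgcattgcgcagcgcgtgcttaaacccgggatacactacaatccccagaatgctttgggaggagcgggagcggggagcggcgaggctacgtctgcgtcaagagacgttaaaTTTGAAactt
Cdca8 (chr4:124936868-124937167, minus strand): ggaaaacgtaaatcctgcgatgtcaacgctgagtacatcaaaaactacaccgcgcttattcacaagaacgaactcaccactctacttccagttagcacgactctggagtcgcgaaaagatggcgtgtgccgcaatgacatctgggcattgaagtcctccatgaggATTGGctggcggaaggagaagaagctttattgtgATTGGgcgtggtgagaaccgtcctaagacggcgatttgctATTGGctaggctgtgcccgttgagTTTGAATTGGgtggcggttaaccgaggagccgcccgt
Ncapg (chr5:45669675-45669974, plus strand): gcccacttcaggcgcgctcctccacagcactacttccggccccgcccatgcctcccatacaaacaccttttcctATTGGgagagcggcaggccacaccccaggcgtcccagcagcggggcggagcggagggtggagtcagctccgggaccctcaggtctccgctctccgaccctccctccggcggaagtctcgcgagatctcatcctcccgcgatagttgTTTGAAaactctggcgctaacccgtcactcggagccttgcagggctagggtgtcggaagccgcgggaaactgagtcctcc
Cenpo (chr12:4233916-4234215, minus strand): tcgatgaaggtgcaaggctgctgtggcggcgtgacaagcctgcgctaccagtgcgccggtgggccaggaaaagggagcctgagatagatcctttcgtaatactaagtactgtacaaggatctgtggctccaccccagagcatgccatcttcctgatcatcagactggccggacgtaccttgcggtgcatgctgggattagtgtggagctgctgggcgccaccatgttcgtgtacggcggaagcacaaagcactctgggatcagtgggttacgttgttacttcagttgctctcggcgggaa

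The members were lower with 2DG almost throughout, each by a small amount. The mean FPKM was lower in MWA+2DG than in MWA for 52 of the 53 members, with Smc4 as the exception. On the log2(FPKM + 1) scale, which understates the change of low genes, the log2 fold change was below 0 for 51 of 52 members tested, against 47.4% of all genes tested. The median member log2 fold change was -0.21, with a range from -0.41 to 0.00, and the median of all genes was 0.01. By the rule of the study (limma, unadjusted P below 0.05 and a log2 fold change beyond 0.25), 14 of 52 members (26.9%) were lower and 0 higher, where 1.87% of all genes were lower and 0.952% higher. The 14 were Cenph, Ndc80, Nuf2, Spc24, Bub1, Bub1b, Mad2l1, Cdca8, Birc5, Ncapg, Ncaph, Aurka, Cdc20 and Sgo2a.

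An unadjusted limma P below 0.05 was reached by 19 members, against 4.25% of all genes, and a two-sided exact permutation p below 0.05 with a lower mean by 17 members, against 2.60% of all genes. No member and no other gene (0% of those tested) passed an adjusted p of 0.05 in limma with Benjamini-Hochberg adjustment, where the smallest adjusted p was 0.996 for members and for all genes alike. The member calls therefore rest on an unadjusted threshold. Spc24 was the member whose 5 MWA+2DG libraries all lay below every MWA library, a pattern seen in 0.510% of all genes.

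**Figure D2:**
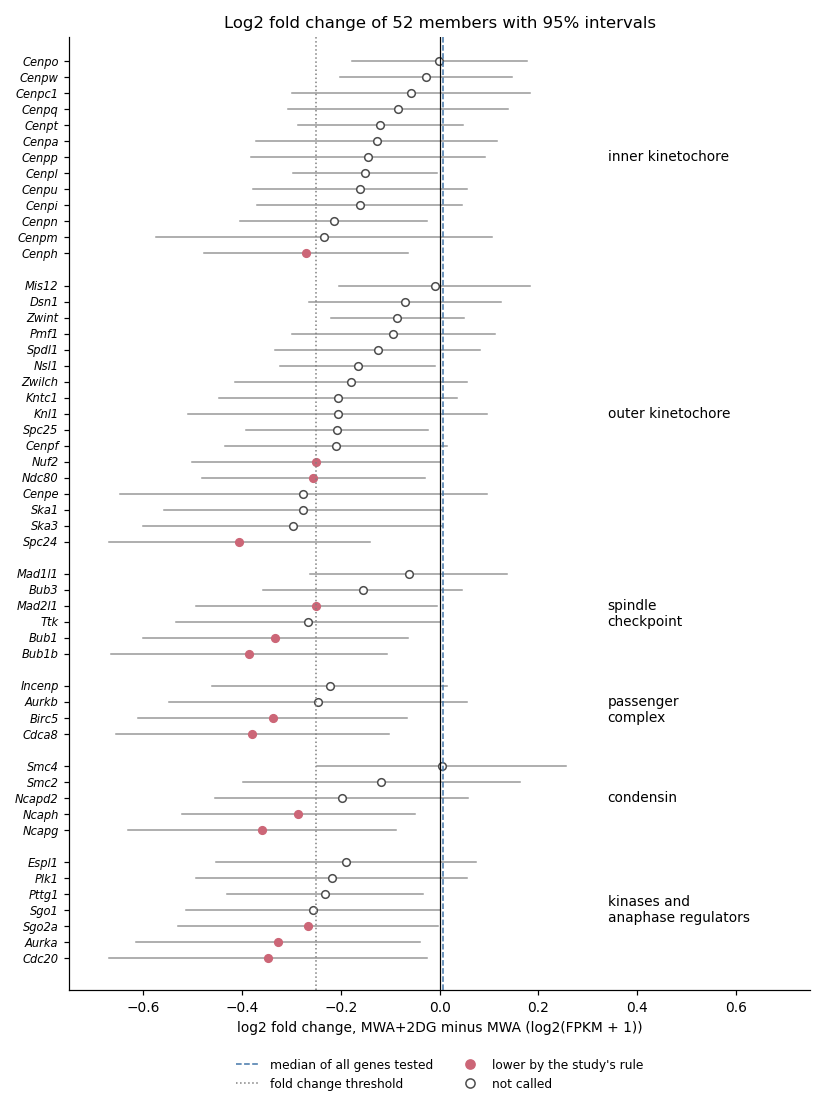
Log2 fold change (MWA+2DG minus MWA, log2(FPKM + 1)) of the 52 members tested, by list, with 95% intervals from limma (5 libraries per group); filled points are the 14 members lower by the study's rule. The points lie left of 0 in every list, apart from Smc4 at 0.00, and the dashed line is the median of all genes, 0.01.

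The libraries did not contribute equally. MWA+2DG replicate 5 was the lowest of all 10 libraries in 42 of the 53 members and below the MWA mean in all 53. MWA+2DG replicate 4 was the highest of its group in 38 members, although it too was below the MWA mean in 37. In the MWA group, replicate 4 was the highest of all 10 libraries in 31 members and replicate 5 in 13. The summed FPKM of the members was 421, 436, 451, 495 and 458 in MWA replicates 1 to 5 and 392, 400, 389, 446 and 311 in MWA+2DG replicates 1 to 5. Only MWA+2DG replicate 4 reached into the range of the MWA libraries. The mean of these sums was 14.3% lower with 2DG, at 387 ± 48.7 FPKM (SD, n = 5) against 452 ± 27.8 FPKM (SD, n = 5).

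Leaving out MWA+2DG replicate 5 left 5 members lower by the rule, 4 of them among the 14, with a median of -0.15. Leaving out MWA replicate 4 left 6, all among the 14, with a median of -0.17. Without MWA+2DG replicate 1 or 3 the count was 8 or 9, and without MWA+2DG replicate 4 it was 26, with a median of -0.26. The count was between 12 and 18 without any of the other 5 libraries. Over all genes, the share lower by the rule was between 1.33% and 2.36% in the 10 leave-outs. By list, from the inner kinetochore to the regulators in the order given above, the counts of 1, 3, 3, 2, 2 and 3 became 0, 1, 1, 1, 1 and 1 without MWA+2DG replicate 5, and 0, 1, 2, 2, 1 and 0 without MWA replicate 4. In all 10 leave-outs 4 members were called lower, namely Spc24, Bub1b, Cdca8 and Ncapg. When each library was rescaled to the same summed FPKM, 5 of 53 members were lower by the rule (9.43%, against 1.24% of all genes). The split over all genes turned from 249 lower and 127 higher to 205 lower and 440 higher. The common sum of 1000000 raised the values while the filter and pseudocount stayed at 1. More genes of low expression therefore entered, 16550 instead of 13334. The median of the members was then -0.19, with 49 of 53 below 0, and the median of all genes was 0.07 instead of 0.01.

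Replicates 1 and 2 of both groups stood apart from replicates 3 to 5 of both groups over all genes. The first principal component held 36.4% of the variance. Its loadings were 0.297 to 0.369 in replicates 1 and 2 and -0.526 to 0.0249 in replicates 3 to 5. Between these sets 488 of 13334 genes tested differed at an adjusted p below 0.05 (limma), among them 0 of 52 members. With so small a share over all genes, a count of 0 does not set the members apart. No label names the sets, which were seen in the same values, so these figures only describe the split. Genes of liver were higher in replicates 3 to 5, by a median of 2.93 on the log2 scale. Within replicates 1 and 2 alone the median member log2 fold change was -0.11, with 44 of 52 members below 0. Lower by the rule there were 2 members (3.85%), near the 2.175% of all genes. Within replicates 3 to 5 alone the median was -0.26, with 51 members below 0. Lower by the rule there were 11 members (21.15%), against 2.895% of all genes. With the replicate set as a term in the fit 14 members were lower by the rule (26.9%, against 2.23% of all genes). Of these, 12 were among the 14 above, while Nuf2 and Sgo2a were no longer called. The summed FPKM over all genes was between 316374 and 359984 in MWA and between 312143 and 325765 in MWA+2DG, and the sequencing depth cannot be read from FPKM.

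**Figure D3:**
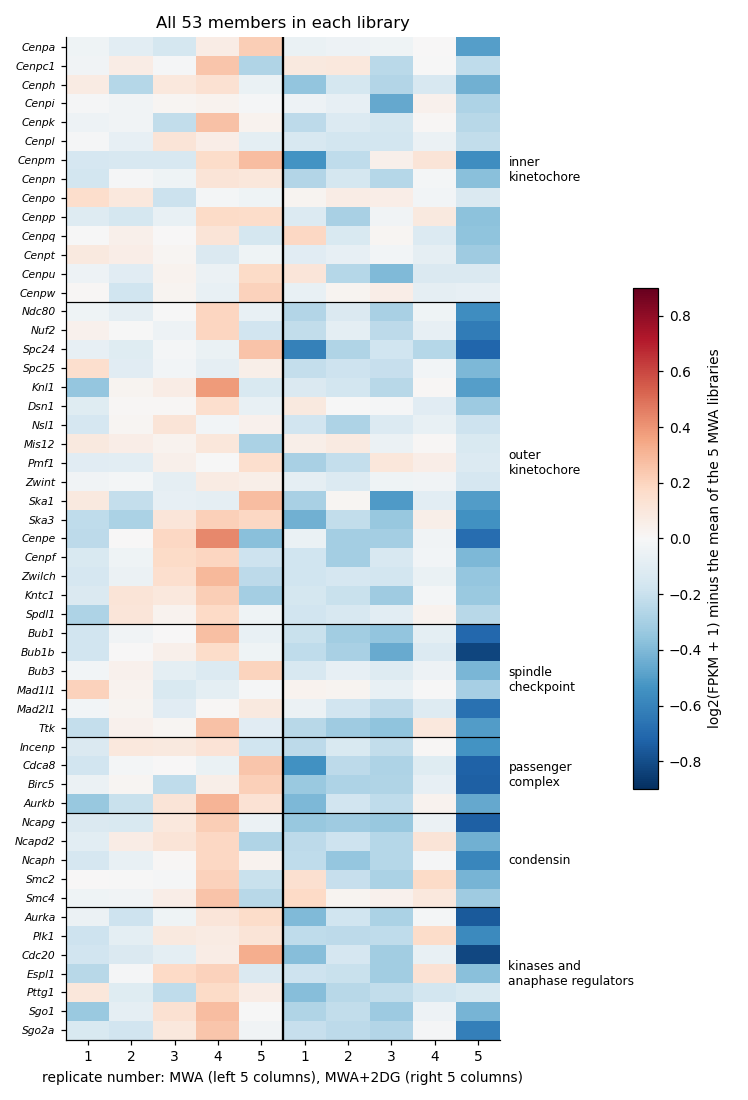
Log2(FPKM + 1) of all 53 members (rows, by list) in each of the 10 libraries (columns), minus the mean of the 5 MWA libraries; blue is lower and red higher. The column of MWA+2DG replicate 5 is the bluest, the column of MWA+2DG replicate 4 is close to the MWA level, and the column of MWA replicate 4 is the reddest.

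Of the inner kinetochore genes, which form the base on the centromere, all 13 tested had a log2 fold change below 0 and 1 was lower by the rule, Cenph, with a median of -0.14 for the list. Cenph encodes a subunit of the constitutive centromere-associated network. It was at 5.28, 3.99, 5.36, 5.57 and 4.72 FPKM in MWA replicates 1 to 5 and 3.66, 4.34, 3.95, 4.38 and 3.42 FPKM in MWA+2DG replicates 1 to 5. Apart from MWA replicate 2, every MWA library was above every MWA+2DG library. The means were 4.99 ± 0.637 FPKM (SD, n = 5) in MWA and 3.95 ± 0.419 FPKM (SD, n = 5) in MWA+2DG, with a log2 fold change of -0.27 ± 0.09 (SE, limma P = 0.0148, exact permutation p = 0.0318). The call was lost without MWA replicate 3 or 4 or MWA+2DG replicate 1 or 5, with log2 fold changes between -0.25 and -0.23.

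Cenpn and Cenpl encode the pair of subunits that bind each other and the CENP-A nucleosome. Cenpn was at 3.84, 4.38, 4.29, 4.89 and 4.84 FPKM in MWA replicates 1 to 5 and 3.53, 3.86, 3.54, 4.38 and 3.19 FPKM in MWA+2DG replicates 1 to 5. MWA+2DG replicates 2 and 4 reached into the MWA range, and the log2 fold change of -0.21 ± 0.09 (SE, limma P = 0.0301, exact permutation p = 0.0476) was short of the fold change threshold. Cenpl was at 2.69, 2.53, 3.03, 2.88 and 2.51 FPKM in MWA replicates 1 to 5 and 2.37, 2.31, 2.32, 2.58 and 2.19 FPKM in MWA+2DG replicates 1 to 5. Only MWA+2DG replicate 4 overlapped with the MWA libraries, and the log2 fold change of -0.15 ± 0.07 (SE, limma P = 0.0430, exact permutation p = 0.0238) did not reach the fold change threshold. Cenpa, the histone variant itself and the inner kinetochore gene of highest FPKM, was at 11.2, 10.7, 10.2, 12.1 and 13.6 FPKM in MWA replicates 1 to 5 and 11.02, 11.1, 11.2, 11.5 and 7.87 FPKM in MWA+2DG replicates 1 to 5. Here 4 of the 5 MWA+2DG libraries lay inside the MWA range and replicate 5 lay below all others, with a log2 fold change of -0.13 ± 0.11 (SE, limma P = 0.274, exact permutation p = 0.357).

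Cenpk, a partner of Cenph in the same subcomplex, was below the filter and not tested, at 0.718, 0.735, 0.522, 1.14 and 0.817 FPKM in MWA replicates 1 to 5 and 0.504, 0.626, 0.589, 0.790 and 0.492 FPKM in MWA+2DG replicates 1 to 5. Its groups overlapped, with means of 0.785 ± 0.224 FPKM (SD, n = 5) in MWA and 0.6001 ± 0.1202 FPKM (SD, n = 5) in MWA+2DG. The other 9 inner kinetochore genes had means between 1.03 FPKM (Cenpu) and 7.09 FPKM (Cenpt), and their log2 fold changes lay between -0.23 (Cenpm) and 0.00 (Cenpo). Of the Cenpo, Cenpp, Cenpq and Cenpu subcomplex, none of the 4 was lower by the rule.

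In the outer kinetochore all 17 genes were below 0, 3 were lower by the rule, and the median was -0.21. The 3 are subunits of the Ndc80 complex, the rod that binds the microtubule. Spc24, at its centromere end, was at 9.59, 9.36, 10.01, 9.73 and 12.3 FPKM in MWA replicates 1 to 5 and 6.30, 8.24, 8.86, 8.34 and 5.82 FPKM in MWA+2DG replicates 1 to 5. The groups did not overlap, and MWA+2DG replicates 1 and 5 were the lowest. The means were 10.2 ± 1.22 FPKM (SD, n = 5) in MWA and 7.51 ± 1.36 FPKM (SD, n = 5) in MWA+2DG, with a log2 fold change of -0.41 ± 0.12 (SE, limma P = 0.00621, exact permutation p = 0.00794), the smallest p that 5 libraries against 5 allow. Left-out libraries moved this log2 fold change between -0.46 and -0.33.

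Ndc80, the microtubule-binding subunit that gives the complex its name, was at 2.93, 2.81, 3.02, 3.62 and 2.85 FPKM in MWA replicates 1 to 5 and 2.36, 2.69, 2.29, 2.94 and 1.74 FPKM in MWA+2DG replicates 1 to 5. Replicate 4 was the MWA+2DG library inside the MWA range. The means were 3.04 ± 0.331 FPKM (SD, n = 5) in MWA and 2.40 ± 0.452 FPKM (SD, n = 5) in MWA+2DG, with a log2 fold change of -0.26 ± 0.10 (SE, limma P = 0.0296, exact permutation p = 0.0318), and the call was lost without MWA replicate 4 or MWA+2DG replicate 1, 3 or 5. Nuf2, the partner of Ndc80, had a log2 fold change of -0.25, just past the threshold, and was called in 3 of 10 leave-outs. Spc25, the partner of Spc24, was at 4.80, 3.87, 4.14, 3.93 and 4.42 FPKM in MWA replicates 1 to 5 and 3.51, 3.58, 3.52, 4.12 and 2.95 FPKM in MWA+2DG replicates 1 to 5. Again replicate 4 was the MWA+2DG library inside the MWA range, but the log2 fold change of -0.21 ± 0.08 (SE, limma P = 0.0301, exact permutation p = 0.0238) was short of the fold change threshold. The difference between Spc24 and Spc25 was not tested.

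The Mis12 complex, which links the inner kinetochore to the Ndc80 complex, had no gene lower by the rule. Mis12 itself was at 15.3, 15.04, 14.7, 15.5 and 11.6 FPKM in MWA replicates 1 to 5 and 14.9, 15.2, 13.8, 14.4 and 12.98 FPKM in MWA+2DG replicates 1 to 5. The groups overlapped throughout, and the lowest library was MWA replicate 5. Its log2 fold change of -0.01 ± 0.09 (SE, limma P = 0.908, exact permutation p = 0.897) had a 95% interval from -0.20 to 0.18. The other subunits Dsn1, Nsl1 and Pmf1 had log2 fold changes of -0.07, -0.17 and -0.09.

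Among the remaining 9 outer kinetochore genes, 3 had log2 fold changes beyond the threshold with P above 0.05. These were the microtubule-binding Ska1 at -0.28 and Ska3 at -0.30, and the kinesin motor Cenpe at -0.28. Knl1, the scaffold on which checkpoint proteins gather, was at -0.21, as were Cenpf and Kntc1, and Zwint, a partner of Knl1, was at -0.09. Zwilch, a subunit of the complex with Kntc1, was at -0.18, and Spdl1, which brings dynein to the kinetochore, at -0.13.

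Of the spindle checkpoint genes all 6 were below 0 and 3 were lower by the rule, with a median of -0.26. Bub1b encodes BubR1, part of the complex that binds and blocks Cdc20. It was at 15.5, 17.6, 18.1, 19.8 and 17.02 FPKM in MWA replicates 1 to 5 and 14.8, 14.1, 12.6, 16.01 and 9.45 FPKM in MWA+2DG replicates 1 to 5. MWA+2DG replicate 4 was above MWA replicate 1, and no other pair of libraries crossed between the groups. The means were 17.6 ± 1.57 FPKM (SD, n = 5) in MWA and 13.4 ± 2.53 FPKM (SD, n = 5) in MWA+2DG, with a log2 fold change of -0.39 ± 0.13 (SE, limma P = 0.0114, exact permutation p = 0.0159). Left-out libraries moved this value between -0.45 and -0.28, and the call held in each of the 10.

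Bub1, a kinase of the kinetochore, was at 5.81, 6.53, 6.72, 8.28 and 6.34 FPKM in MWA replicates 1 to 5 and 5.69, 5.19, 5.00, 6.25 and 3.72 FPKM in MWA+2DG replicates 1 to 5. As for Bub1b, MWA+2DG replicate 4 was above MWA replicate 1 and the groups were otherwise apart. The means were 6.74 ± 0.926 FPKM (SD, n = 5) in MWA and 5.17 ± 0.945 FPKM (SD, n = 5) in MWA+2DG, with a log2 fold change of -0.33 ± 0.12 (SE, limma P = 0.0198, exact permutation p = 0.0159), and the call was lost without MWA+2DG replicate 5, at -0.24. The FPKM of Bub1b was 2.63 ± 0.134 times that of Bub1 in the MWA libraries and 2.59 ± 0.0815 times in the MWA+2DG libraries (SD, n = 5 each).

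Mad2l1 encodes Mad2, which changes shape to bind Cdc20. It was at 6.54, 6.77, 6.15, 6.71 and 7.15 FPKM in MWA replicates 1 to 5 and 6.38, 5.79, 5.49, 6.07 and 3.82 FPKM in MWA+2DG replicates 1 to 5. MWA+2DG replicate 1 was above MWA replicate 3, and the other MWA+2DG libraries were below every MWA library. The log2 fold change of -0.25 ± 0.11 (SE, limma P = 0.0453, exact permutation p = 0.0159) stood at the threshold and was called in 3 of 10 leave-outs. Bub3, the checkpoint gene of highest FPKM, was at 17.7, 18.5, 16.9, 16.5 and 20.9 FPKM in MWA replicates 1 to 5 and 16.2, 17.1, 16.6, 17.4 and 13.3 FPKM in MWA+2DG replicates 1 to 5. Replicates 2, 3 and 4 of MWA+2DG lay inside the MWA range, with a log2 fold change of -0.16 ± 0.09 (SE, limma P = 0.115, exact permutation p = 0.103). The remaining checkpoint genes Ttk, the kinase that starts the signal, and Mad1l1, the anchor of Mad2, had log2 fold changes of -0.27 (P = 0.0505 in limma, exact permutation p = 0.0794) and -0.06.

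**Figure D4:**
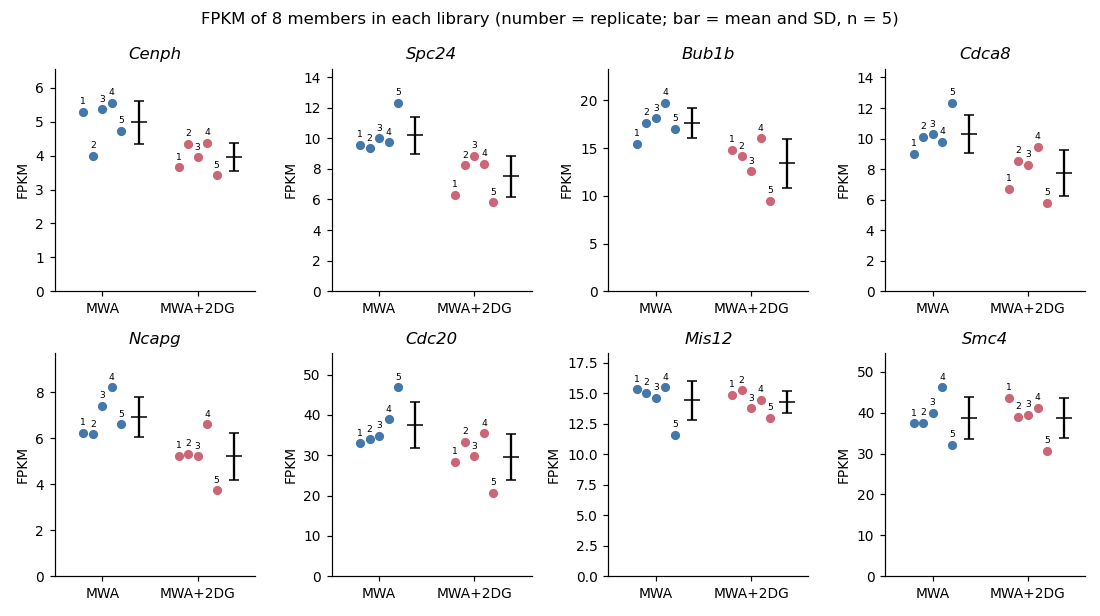
FPKM of 8 members in each library; blue points are MWA, red points MWA+2DG, numbers are replicates, and bars give mean and SD (n = 5). The groups are apart for Spc24, a few libraries cross for Cenph, Bub1b, Cdca8, Ncapg and Cdc20, and the groups overlap throughout for Mis12 and Smc4.

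The chromosomal passenger complex corrects faulty attachments, and all 4 of its genes were below 0, with a median of -0.29, and 2 were lower by the rule. Cdca8, which encodes borealin, was at 8.99, 10.1, 10.3, 9.78 and 12.4 FPKM in MWA replicates 1 to 5 and 6.69, 8.56, 8.27, 9.44 and 5.78 FPKM in MWA+2DG replicates 1 to 5. MWA+2DG replicate 4 was above MWA replicate 1, and no other libraries crossed. The means were 10.3 ± 1.25 FPKM (SD, n = 5) in MWA and 7.75 ± 1.48 FPKM (SD, n = 5) in MWA+2DG, with a log2 fold change of -0.38 ± 0.13 (SE, limma P = 0.0118, exact permutation p = 0.0159). This call held in all 10 leave-outs, with values between -0.45 and -0.29.

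Birc5, which encodes survivin, was at 13.96, 14.7, 12.2, 15.1 and 16.97 FPKM in MWA replicates 1 to 5 and 11.3, 11.8, 11.8, 13.8 and 8.33 FPKM in MWA+2DG replicates 1 to 5. MWA+2DG replicate 4 was above MWA replicate 3, with all other MWA+2DG libraries below the MWA range. The means were 14.6 ± 1.72 FPKM (SD, n = 5) in MWA and 11.4 ± 1.96 FPKM (SD, n = 5) in MWA+2DG, with a log2 fold change of -0.34 ± 0.12 (SE, limma P = 0.0195, exact permutation p = 0.0159), and the call was lost without MWA+2DG replicate 5, at -0.24. The scaffold Incenp was at 18.9, 22.3, 22.2, 22.8 and 18.3 FPKM in MWA replicates 1 to 5 and 17.6, 18.9, 17.7, 21.0 and 14.03 FPKM in MWA+2DG replicates 1 to 5. Replicates 2 and 4 of MWA+2DG lay inside the MWA range, with a log2 fold change of -0.22 ± 0.11 (SE, limma P = 0.0636, exact permutation p = 0.0556). The kinase Aurkb was at 12.1, 13.4, 17, 19.5 and 17.1 FPKM in MWA replicates 1 to 5 and 11.5, 13.7, 13.2, 15.97 and 11.1 FPKM in MWA+2DG replicates 1 to 5. Replicates 2, 3 and 4 of MWA+2DG were above MWA replicate 1, and the log2 fold change of -0.25 ± 0.14 (SE, limma P = 0.0990, exact permutation p = 0.135) did not pass the rule. Within replicates 1 and 2 the log2 fold change of Aurkb was -0.02 and within replicates 3 to 5 it was -0.40.

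Condensin folds the chromosomes with an ATPase core and 3 regulatory subunits. Of its 5 genes 4 were below 0 and 2 were lower by the rule, with a median of -0.20. The 2 were the regulatory subunits Ncapg and Ncaph. Ncapg was at 6.22, 6.16, 7.40, 8.20 and 6.61 FPKM in MWA replicates 1 to 5 and 5.22, 5.31, 5.21, 6.60 and 3.73 FPKM in MWA+2DG replicates 1 to 5. MWA+2DG replicate 4 was above MWA replicates 1 and 2, and the others were below every MWA library. The means were 6.92 ± 0.873 FPKM (SD, n = 5) in MWA and 5.21 ± 1.02 FPKM (SD, n = 5) in MWA+2DG, with a log2 fold change of -0.36 ± 0.12 (SE, limma P = 0.0142, exact permutation p = 0.0238), and the call held in all 10 leave-outs, between -0.44 and -0.26.

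Ncaph, the subunit that closes the ring, was at 8.18, 8.73, 9.27, 10.6 and 9.41 FPKM in MWA replicates 1 to 5 and 7.70, 7.01, 7.55, 9.12 and 5.80 FPKM in MWA+2DG replicates 1 to 5. Its pattern was that of Ncapg, with MWA+2DG replicate 4 above MWA replicates 1 and 2. The means were 9.24 ± 0.905 FPKM (SD, n = 5) in MWA and 7.44 ± 1.201 FPKM (SD, n = 5) in MWA+2DG, with a log2 fold change of -0.29 ± 0.11 (SE, limma P = 0.0218, exact permutation p = 0.0238), and the call was lost without MWA replicate 4 (-0.24) or MWA+2DG replicate 5 (-0.21). The third regulatory subunit, Ncapd2, was at 17.2, 19.4, 20.1, 21.1 and 15.2 FPKM in MWA replicates 1 to 5 and 15.6, 16.1, 15.3, 20.1 and 13.4 FPKM in MWA+2DG replicates 1 to 5. Replicates 1 to 4 of MWA+2DG were all above MWA replicate 5, and the log2 fold change of -0.20 ± 0.12 (SE, limma P = 0.116, exact permutation p = 0.151) did not pass the rule.

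Smc4, an ATPase core subunit and the member of highest FPKM, was at 37.4, 37.5, 40.0, 46.2 and 32.2 FPKM in MWA replicates 1 to 5 and 43.7, 39.02, 39.4, 41.2 and 30.6 FPKM in MWA+2DG replicates 1 to 5. The groups overlapped throughout, with the lowest library in MWA+2DG and the highest in MWA. The means were 38.7 ± 5.07 FPKM (SD, n = 5) in MWA and 38.8 ± 4.91 FPKM (SD, n = 5) in MWA+2DG, and the log2 fold change of 0.00 ± 0.11 (SE, limma P = 0.973, exact permutation p = 0.992) had a 95% interval from -0.25 to 0.26. The other core subunit, Smc2, was at -0.12, with a 95% interval from -0.40 to 0.16. In each library the FPKM of Ncapg was divided by that of Smc4, a ratio chosen after the values had been seen and given with no test. It was 0.166, 0.164, 0.185, 0.178 and 0.205 in MWA replicates 1 to 5 and 0.1196, 0.136, 0.132, 0.160 and 0.122 in MWA+2DG replicates 1 to 5, so the groups did not overlap. The ratio of Ncapg to Smc2, at 0.723 ± 0.0745 and 0.593 ± 0.0792 (SD, n = 5 each), did overlap. Ratios were also taken between other condensin, Ndc80 complex, Mis12 complex, checkpoint and passenger genes. All of those overlapped, so the ratio of Ncapg to Smc4 was the only one that did not.

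The 7 mitotic kinases and anaphase regulators were all below 0, 3 of them lower by the rule, with a median of -0.26. Cdc20, the target of the checkpoint and the gene of highest FPKM in this list, was at 33.0, 33.99, 34.9, 38.9 and 46.8 FPKM in MWA replicates 1 to 5 and 28.4, 33.4, 29.7, 35.4 and 20.7 FPKM in MWA+2DG replicates 1 to 5. MWA+2DG replicates 2 and 4 lay inside the MWA range, replicate 5 was the lowest and MWA replicate 5 the highest. The means were 37.5 ± 5.68 FPKM (SD, n = 5) in MWA and 29.5 ± 5.68 FPKM (SD, n = 5) in MWA+2DG, with a log2 fold change of -0.35 ± 0.15 (SE, limma P = 0.0368, exact permutation p = 0.0556). The call was lost without MWA replicate 4 or 5 or MWA+2DG replicate 1, 3 or 5, with values between -0.36 and -0.23.

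Aurka, the kinase of spindle poles, was at 12.03, 10.8, 12.2, 13.6 and 14.1 FPKM in MWA replicates 1 to 5 and 9.25, 10.9, 10.1, 12.3 and 7.01 FPKM in MWA+2DG replicates 1 to 5. MWA+2DG replicates 2 and 4 reached into the MWA range. The means were 12.6 ± 1.31 FPKM (SD, n = 5) in MWA and 9.91 ± 1.98 FPKM (SD, n = 5) in MWA+2DG, with a log2 fold change of -0.33 ± 0.13 (SE, limma P = 0.0290, exact permutation p = 0.0556), and the call was lost without MWA replicate 4 or 5 or MWA+2DG replicate 1 or 5. Pttg1 encodes securin, the inhibitor of separase. It was at 12.8, 10.9, 9.96, 13.5 and 12.5 FPKM in MWA replicates 1 to 5 and 8.87, 9.79, 10.01, 10.5 and 10.7 FPKM in MWA+2DG replicates 1 to 5. MWA+2DG replicate 5, the lowest library of most members, was here the highest of its group, and the log2 fold change of -0.23 ± 0.09 (SE, limma P = 0.0261, exact permutation p = 0.0397) was short of the fold change threshold. The third gene lower by the rule, Sgo2a, which protects cohesin at the centromere, was at -0.27 and was called in 3 of 10 leave-outs. Reads of Sgo2a may be shared with its close paralogue Sgo2b. Plk1, a kinase of many mitotic steps, the separase gene Espl1 and the cohesin protector Sgo1 were at -0.22, -0.19 and -0.26 without passing the rule.

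Genes that work beside the members were read from 4 further lists. Of 22 kinetochore loading and assembly partners 4 were lower by the rule, with a median of -0.11. Spag5 (astrin), which stabilises attached microtubules, was at 5.93, 6.50, 7.03, 7.57 and 6.54 FPKM in MWA replicates 1 to 5 and 5.28, 5.74, 4.70, 5.69 and 4.46 FPKM in MWA+2DG replicates 1 to 5, without overlap, with a log2 fold change of -0.32 ± 0.09 (SE, limma P = 0.00330, exact permutation p = 0.00794). Cenps, a histone-fold partner of Cenpt and Cenpw, was at 16.7, 17.9, 16.1, 17.6 and 22.1 FPKM in MWA replicates 1 to 5 and 13.4, 15.4, 14.99, 15.7 and 11.1 FPKM in MWA+2DG replicates 1 to 5, also without overlap, with a log2 fold change of -0.34 ± 0.11 (SE, limma P = 0.0117, exact permutation p = 0.00794). Cenpt and Cenpw themselves had log2 fold changes of -0.12 and -0.03.

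Of 17 genes of condensin II and cohesin 2 were lower by the rule, with a median of -0.05. They were Esco2, which acetylates cohesin in S phase, and Cdca5 (sororin), which keeps cohesin on replicated DNA. Esco2 was at 2.64, 3.03, 3.84, 4.88 and 3.57 FPKM in MWA replicates 1 to 5 and 2.46, 2.21, 2.46, 3.29 and 2.05 FPKM in MWA+2DG replicates 1 to 5, with a log2 fold change of -0.38 ± 0.14 (SE, limma P = 0.0162, exact permutation p = 0.0397). Cdca5 was at 11.6, 11.5, 13.6, 13.5 and 15.6 FPKM in MWA replicates 1 to 5 and 9.28, 10.3, 10.6, 13.6 and 9.54 FPKM in MWA+2DG replicates 1 to 5, with a log2 fold change of -0.28 ± 0.11 (SE, limma P = 0.0310, exact permutation p = 0.0556). In both, MWA+2DG replicate 4 was inside the MWA range and the other MWA+2DG libraries were below it. Of 17 genes of the anaphase-promoting complex, the target of the checkpoint, 1 was lower, with a median of -0.07. It was Ube2c, the enzyme that brings ubiquitin to the complex, and Anapc15, a subunit needed to release the checkpoint, had the next smallest P. Ube2c was at 15.97, 13.1, 14.7, 14.8 and 16.8 FPKM in MWA replicates 1 to 5 and 10.9, 13.4, 13.8, 14.3 and 10.4 FPKM in MWA+2DG replicates 1 to 5, with a log2 fold change of -0.25 ± 0.10 (SE, limma P = 0.0351, exact permutation p = 0.0476). Anapc15 was at 6.42, 6.60, 5.52, 5.87 and 6.79 FPKM in MWA replicates 1 to 5 and 5.43, 5.68, 6.25, 5.80 and 4.38 FPKM in MWA+2DG replicates 1 to 5, with a log2 fold change of -0.16 ± 0.09 (SE, limma P = 0.113, exact permutation p = 0.0873). In both, MWA+2DG replicates 1 and 5 were below the MWA range and the other MWA+2DG libraries were inside it. The medians of these lists, leaving out MWA+2DG replicate 5, were 0.01 and -0.02, and with each library rescaled to the same sum they were 0.01 and -0.01. Without MWA+2DG replicate 5 or MWA replicate 4 the counts of the assembly partners, of condensin II and cohesin, and of the anaphase-promoting complex were 2, 1 and 0.

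Of 18 S phase genes, which act before mitosis, 4 were lower by the rule and 17 were below 0, with a median of -0.21. The replicative helicase genes Mcm5 and Mcm6 had the smallest P. Mcm6 was at 27.9, 26.9, 27.6, 32.0 and 26.5 FPKM in MWA replicates 1 to 5 and 23.7, 23.8, 22.3, 26.5 and 20.3 FPKM in MWA+2DG replicates 1 to 5. MWA+2DG replicate 4 was just below MWA replicate 5 and the groups did not overlap, with a log2 fold change of -0.27 ± 0.08 (SE, limma P = 0.00889, exact permutation p = 0.00794). Mcm5 was at 45.7, 45.8, 49.3, 49.7 and 56.2 FPKM in MWA replicates 1 to 5 and 37.8, 40.8, 38.9, 47.7 and 35.3 FPKM in MWA+2DG replicates 1 to 5, with a log2 fold change of -0.30 ± 0.09 (SE, limma P = 0.00865, exact permutation p = 0.0238). Again MWA+2DG replicate 4 was inside the MWA range and the other MWA+2DG libraries were below it. In 3 of the 18 genes, Mcm3, Mcm6 and Pcna, all MWA+2DG libraries lay below every MWA library. This pattern was seen in 1 of 52 members and in 0.510% of all genes. The median of the S phase genes equalled that of the members to 2 decimals, and the difference between the lists was not tested. Leaving out MWA+2DG replicate 4 raised the S phase count to 8, and leaving out MWA+2DG replicate 5 or MWA replicate 5 reduced it to 2. With each library rescaled to the same sum, 0 of the 18 were lower by the rule, with a median of -0.17.

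The tissue label was read against markers of the cells a node holds. Every marker of B cells and T cells had a mean above 10 FPKM, and 8 of 10 markers of epithelium and mammary tumor had means below 1 FPKM. The summed FPKM of these 10 was 15.4 in MWA+2DG replicate 5 and between 2.58 and 8.36 in every other library. That library also had the lowest mean log2 value of the B cell and dendritic cell markers and the highest of the macrophage markers. Its loading on the first principal component, -0.526, was the farthest from 0. The part of these differences in its low member values was not tested. Markers of germinal centre B cells were lower with the members. Of the 10, 9 were tested, 9 were below 0 and 7 were lower by the rule, with a median of -0.53. None of the 10 was at 0 in any library. Rgs13, a signalling regulator of germinal centres, had a log2 fold change of -0.63.

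The summed FPKM of the germinal centre markers was 199, 287, 290, 326 and 297 in MWA replicates 1 to 5 and 186, 205, 214, 217 and 136 in MWA+2DG replicates 1 to 5. MWA replicate 1 was the lowest and replicate 4 the highest of the MWA group, and MWA+2DG replicate 5 was the lowest and replicate 4 the highest of the other group, as for the summed FPKM of the members. In the MWA+2DG group the summed S phase genes were also lowest in replicate 5 (348 FPKM) and highest in replicate 4 (443 FPKM). The same held for the anaphase-promoting complex, at 179 and 215 FPKM. Without MWA+2DG replicate 5 the median of the germinal centre markers was -0.42 and 6 were lower by the rule. Within replicates 1 and 2 alone their median was -0.30 and 0 of 9 were lower by the rule. Within replicates 3 to 5 alone it was -0.67 and 7 of 9 were lower.

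Markers of T cells went the other way, with 13 of 13 above 0, a median of 0.18 and 1 higher by the rule, Cd8a (6 without MWA replicate 1 or MWA+2DG replicate 5, 1 or 0 without any of the others, and 5 with a median of 0.25 when each library was rescaled to the same sum), and with a summed FPKM of 418 to 635 in MWA and 463 to 597 in MWA+2DG. General B cell markers had a median of -0.07 and none passed the rule, with a summed FPKM of 1639 to 1845 and 1525 to 1769. Plasma cell markers had 3 of 9 lower and neutrophil markers 2 of 5 tested, with summed FPKM of 561 to 1117 against 481 to 756 and of 23.1 to 104 against 11.5 to 25.4. The plasma cell count was 0 without MWA replicate 3, MWA replicate 4, MWA+2DG replicate 3 or MWA+2DG replicate 5, 1 without MWA replicate 5 or under rescaling, and 5 without MWA replicate 1. Within replicates 1 and 2 alone the plasma cell median was 0.08. The neutrophil count was 3 without MWA replicate 1 or 2 or under rescaling, and 1 without MWA+2DG replicate 2. The part of germinal centre B cells, or of any other cell type, in the lower values of the kinetochore, checkpoint and condensin genes was not tested.

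**Figure D5:**
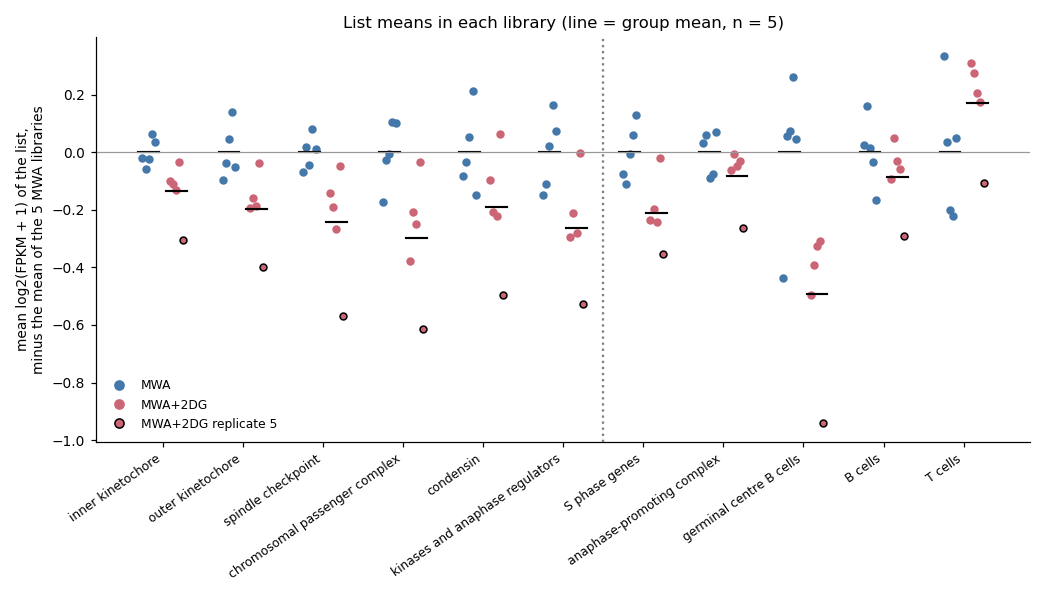
Mean log2(FPKM + 1) of each list in each library, minus the mean of the 5 MWA libraries; points are libraries (blue MWA, red MWA+2DG, black outline MWA+2DG replicate 5) and lines are group means (n = 5). The MWA+2DG mean lies below 0 for every list shown apart from the T cell markers, the anaphase-promoting complex and general B cell markers included. For the T cell markers it lies above 0. MWA+2DG replicate 5 is the lowest point of each list shown apart from T cells.

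Promoter motifs and the size of the difference were set side by side for the 45 tested members with a promoter window. The median log2 fold change was -0.21 in the 26 with a CHR match, of which 7 were lower by the rule, and -0.16 in the 19 without one, of which 6 were lower. For the CCAAT box it was -0.21 in the 32 with a match and -0.23 in the 13 without. These values are descriptions over genes measured in the same 10 libraries and were not tested.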

How the data were processed

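TDLNs of 10 mice were sequenced (poly(A) RNA, 1 library per mouse). The values are FPKM per gene as deposited by the authors, made with HISAT2, StringTie and ballgown. The submitters' processing notes also name cutadapt 1.9, HISAT2 2.0.4, UMI-tools, StringTie 1.3.4d and the build mm9, whose coordinates are not used here. The sources do not give whether strand entered the quantification. The lowest nonzero FPKM values were near 1e-06, so reads could not be recovered and depth is unknown.

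Of 33643 identifiers 33541 had a symbol, and values of 57 symbols held by several identifiers were summed. Genes whose mean reached 1 FPKM entered limma 3.58.1 (R 4.3.3) as log2(FPKM + 1), without covariates and with Benjamini-Hochberg adjustment over all genes tested. Single members were also tested by two-sided exact permutation over the 10 libraries. The study's rule names neither log base, pseudocount nor filter, so log2, 1 and 1 FPKM were set here, and the script was checked on simulated data.

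The members and lists were chosen with earlier results of these data known. Genes named with all values were, in each member list, the 3 of smallest P (all where a list has 4 or fewer) and the one of highest mean FPKM, any member above 0 or below the filter, and in each further pathway list the 2 of smallest P. Other members are named by their fold change alone, after their values were seen. Alternatives were other pseudocounts, filters, scalings and tests, the replicate number as a block, the replicate sets as a term, and leaving out each library. Fits within each replicate set were added after seeing the data.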

Additional observations from a re-analysis of the deposited data

Results flagged for a closer look

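In a group of 5 libraries, a highest or lowest value was singled out where its gap to the nearest other library was above 0.71 of the group's range. This held for 5 of 106 groups of member values and for 8 of 136 groups in all, with the summed lists, and chance singles out about 1 in 20. Cenpa and Cenpt were low in MWA+2DG replicate 5, at 7.87 FPKM with the next library at 11, and at 5.75 FPKM with the next at 6.83. In the same library the summed FPKM of the inner kinetochore was 42.6, with the next library at 53.2. The sums of the kinetochore loading and assembly partners and of the anaphase-promoting complex were also low there, at 204 and 179 FPKM, with the next libraries at 248 and 207. Ndc80 was high in MWA replicate 4, at 3.62 FPKM with the next library at 3.02. In MWA replicate 5, Spc24 was high at 12.3 FPKM with the next at 10, and Mis12 was low at 11.6 FPKM with the next at 14.7.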

How the results depend on the processing

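Over all alternatives the median member log2 fold change stayed below 0 and moved by less than the spread between libraries (0.12). It lay between -0.26 (pseudocount 0.1) and -0.19 (rescaling to 1000000) under the other settings, between -0.26 and -0.15 with 1 library left out, and at -0.11 and -0.26 within replicates 1 to 2 and 3 to 5. The count of members lower by the rule was 10 to 17 under the other settings, except for 5 under rescaling, against 14. The 10 came from the filter of 5 FPKM, where only 27 members were tested (37.0% of them, against 2% of all genes). The 5 under rescaling were 9.43% of the members, against 1.24% of all genes. Under the other settings the share of all genes lower by the rule was between 0.772% (no filter) and 2.23% (replicate set as a term). The count of members was 5 to 26 with 1 library left out. It was 2 (3.85%) and 11 (21.15%) within replicates 1 to 2 and 3 to 5, fits with fewer libraries. Of 12 members lower without a filter and of 16 under quantile normalization, 12 and 14 were among the 14. With an exact permutation p in place of the limma P, 11 members were lower.

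The replicate number as a block gave 16 members (30.8%, against 2.14% of all genes), 12 of them among the 14. Cdc20 and Mad2l1 were then not called. The deviations of same-numbered libraries correlated by 0.331, 0.501, 0.1098, 0.0334 and 0.151, and 1 MWA library correlated best with its own number, so the numbers were not taken as pairs.

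Over all genes, 249 were lower and 127 higher by the rule. A filter of 5 FPKM, with fewer genes, gave 161 and 69, and rescaling, with more genes, 205 and 440. Left-out libraries gave 177 to 315 and 80 to 222. No setting gave a gene at an adjusted p below 0.05 in limma, except 1 gene without MWA replicate 2, which was no member. Of 432 values of the 23 named members tested, 13 changed sign, all of Mis12 or Smc4. Mis12 was at 0.0519 under rescaling and between -0.0810 and 0.0209 with a library left out, and Smc4 between -0.0575 and 0.0842. In 37 a call was lost and in 15 gained. The causes of these changes were not tested. Depth is unknown, so counting error cannot be given, and 5 libraries against 5 limit the exact p to 0.00794 at least.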
